A study of Homo sapiens with 6 samples.

Results

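The clustered protocadherins are 3 neighbouring gene families on the long arm of chromosome 5, and the histone marks called across them were examined in H1299, a widely used human line derived from a non-small cell lung cancer. Members were the called intervals that overlap chr5:140160000-140900000 (hg19). They numbered 62 of the 275570 intervals in 4 deposited lists: 32 H3K4me3 and 1 H3K27me3 interval in the metformin lists, and 29 H3K4me3 and 0 H3K27me3 intervals in the control lists. The series holds cells treated with 5 mM metformin, a biguanide used against diabetes, and untreated control cells of the same line at the same passage range, with 1 library per mark in either condition and 2 input libraries not used here. Chromatin was cross-linked, cut with micrococcal nuclease and precipitated with an antibody against either mark. With 1 library per mark and condition there is no replicate error, so no test between conditions was made. Each list averages over a whole culture, so a mark on fewer cells and a weaker mark on all cells cannot be told apart. Duration of treatment is not given in the sources used here.

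Clustered protocadherins are cell surface adhesion proteins best known from neurons, where each cell switches on its own small choice of them and the resulting combination labels that cell. In the alpha and gamma clusters, a row of variable exons, each with its own promoter, is followed by constant exons shared by the whole cluster, whereas the beta genes have no constant exons. Promoter choice in neurons is known to depend on the insulator protein CTCF with cohesin, on DNA methylation, and on distant enhancers. H3K4me3 is a mark of active or poised promoters, and H3K27me3 is deposited by Polycomb repressive complex 2 at silenced developmental genes.

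The RefSeq gene table (GRCh38.p14), used here for names and order alone, lists 53 protein-coding genes: 15 alpha, 16 beta and 22 gamma. Alpha runs from PCDHA1 to PCDHA13 and ends with the C types PCDHAC1 and PCDHAC2. Gamma runs from PCDHGA1 through interleaved A and B types to PCDHGA12 and ends with the C types PCDHGC3, PCDHGC4 and PCDHGC5. SLC25A2, a mitochondrial amino acid carrier, and TAF7, a subunit of the general transcription factor TFIID, lie between PCDHB15 and PCDHGA1. The gene table and the interval lists are on different builds, so intervals are given below by position and cluster and were not assigned to genes.

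Many promoters of these genes hold the letters CGCT shortly before the start, and in part of each cluster the bases around them are alike. The following stretches are shown for that likeness and for promoters that lack it. They come from the RefSeq promoter table (GRCh38.p14, chromosome 5, plus strand), which held 47 of the 53 genes. Each is the 44 bases around the CGCT nearest to the start within the search window, in capitals. PCDHA9, PCDHB5, PCDHB8 and PCDHGB2 had no CGCT in that window. The first and the last gene of each type with a match are given.
PCDHA1: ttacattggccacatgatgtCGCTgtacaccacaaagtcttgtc
PCDHA12: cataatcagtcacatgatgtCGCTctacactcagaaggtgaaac
PCDHAC1: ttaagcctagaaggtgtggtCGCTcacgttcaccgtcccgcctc
PCDHAC2: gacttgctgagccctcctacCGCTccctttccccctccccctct
PCDHB1: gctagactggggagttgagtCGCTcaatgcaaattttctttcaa
PCDHB15: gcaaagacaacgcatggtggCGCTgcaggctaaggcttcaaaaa
PCDHGA1: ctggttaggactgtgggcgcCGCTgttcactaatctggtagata
PCDHGA11: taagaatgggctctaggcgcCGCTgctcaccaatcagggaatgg
PCDHGB1: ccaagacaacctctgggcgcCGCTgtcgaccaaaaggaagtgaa
PCDHGB7: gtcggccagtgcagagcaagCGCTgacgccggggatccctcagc
PCDHGC3: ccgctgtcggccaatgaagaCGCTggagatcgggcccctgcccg
PCDHGC4: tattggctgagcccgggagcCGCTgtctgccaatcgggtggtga

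CGCT on the gene's strand began between 100 and 30 bases before the start in 43 of the 47 promoters (91.5%), against 21.6% of all 35116 promoters of the same length of 300 bases. By cluster these were 12 of 13 alpha, 12 of 14 beta and 19 of 20 gamma promoters. The letters, the strand and the window were not part of the planned analyses, so these shares are descriptions. Its reverse complement AGCG began in that window in 9 of 47 (19.1%), against 21.8% of all promoters. Anywhere and on either strand, the 4 letters are common, in 46 of 47 and in 70.0% of all promoters.

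Longer forms, picked after reading the sequences and each containing CGCT, were searched on both strands. ATGTCGCT was found in 9 of 13 alpha promoters and in 0 beta and 0 gamma promoters, against 0.234% of all. TGGCGCTG was found in 12 of 14 beta promoters, in 0 alpha promoters and in 1 of 20 gamma promoters, against 1.91% of all. GCGCCGCT was found in 10 of 20 gamma promoters and in 0 alpha and 0 beta promoters, against 3.17% of all. Paralogous promoters share descent, so these counts describe the family and are not independent observations. The stretches printed for PCDHAC1, PCDHAC2, PCDHB1, PCDHGB7, PCDHGC3 and PCDHGC4 carry none of these longer forms. A match shows letters only.

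Each promoter sequence held 250 bases before the start and 50 after it, and bases further downstream were not counted. Within that stretch most promoters other than the C types were poor in CG pairs. For each protocadherin gene the first start listed was used, whereas the set of all promoters kept every start. The 43 promoters of the other types held a median of 7 CG pairs in 300 bases (lowest 2, highest 16), against a median of 14 over all 35116 promoters. The 4 C-type promoters in the table held 27 (PCDHAC1), 15 (PCDHAC2), 18 (PCDHGC3) and 23 (PCDHGC4). Of the other types, the gamma B promoters were the richest with a median of 11.0, and the gamma A promoters the poorest with 5.00. Among the gamma B promoters, PCDHGB5 (14) and PCDHGB6 (16) reached the median of all promoters.

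**Figure D1:**
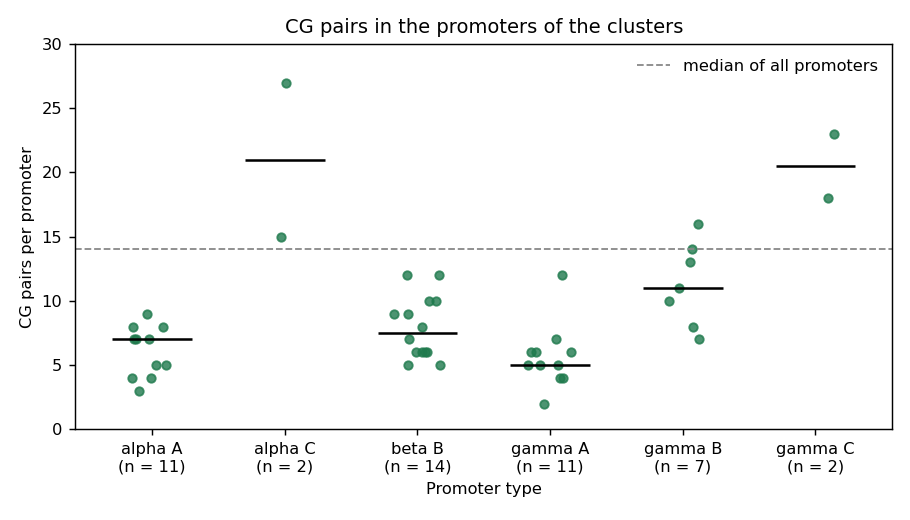
CG pairs in the RefSeq promoters of the clusters (300 bases each, y axis) by promoter type (x axis); each point is 1 gene, black bars are medians, and the dashed line is the median of all promoters. The 4 C-type promoters lie between 15 and 27 pairs, and the median of each other type lies below the dashed line at 14.

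H3K4me3 was called at separated sites in all 3 clusters, and H3K27me3 was nearly absent from the lists there. For counting, the locus was divided into an alpha section (chr5:140160000-140409999), a beta section (chr5:140410000-140669999), the 35 kb between beta and gamma (chr5:140670000-140704999) and a gamma section (chr5:140705000-140900000). The bounds were placed in the gaps between the clusters from general knowledge of the locus, not from an annotation of the build. A site counted in a section may therefore lie outside the genes of that cluster. H3K4me3 intervals of both conditions that lay within 1 kb of each other were joined into a site, which gave 19 sites: 5 alpha, 8 beta, 2 between beta and gamma, and 4 gamma. In each of the 3 clusters the sites were fewer than the coding genes of the RefSeq table. No site was assigned to a gene, so these numbers do not count promoters with or without the mark.

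**Figure D2:**
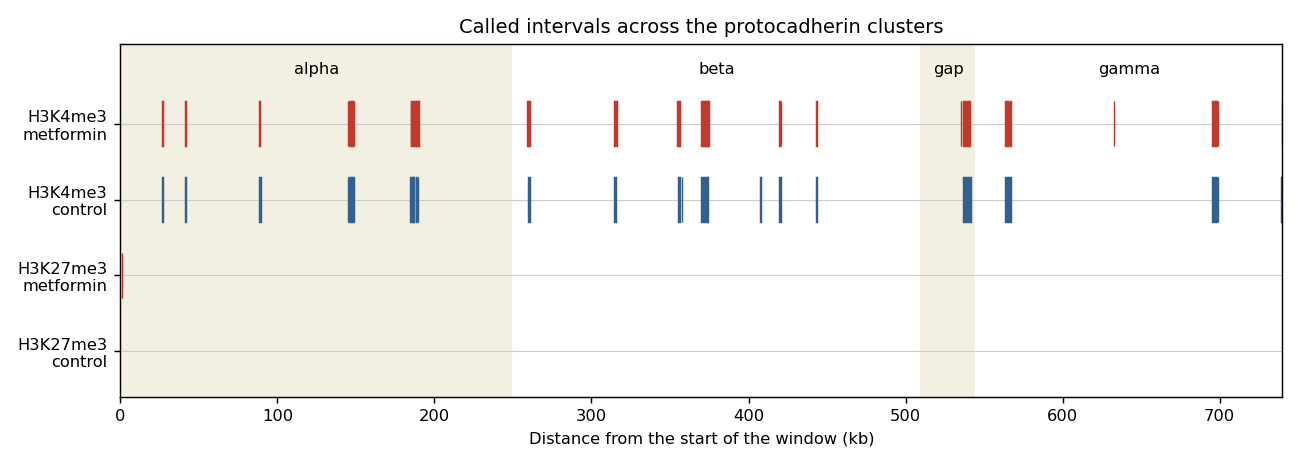
Intervals across the locus, by distance from its start in kb (x axis), in the 4 lists (rows; metformin red, control blue; a thin outline keeps narrow intervals visible). The H3K4me3 rows hold 32 and 29 intervals at much the same places in the metformin and control lists, while the H3K27me3 rows hold 1 and 0.

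Covered length of H3K4me3 over the locus was 30.8 kb in metformin-treated cells and 30.5 kb in control cells, a ratio of 1.01. Over the whole lists the ratio was 1.12. By section, the alpha cluster had 9.38 kb after metformin and 8.16 kb in control (ratio 1.15), and the beta cluster 11.4 kb and 11.5 kb (0.991). Between beta and gamma it was 3.79 kb after metformin and 4.37 kb in control (0.868), and in the gamma cluster 6.25 kb and 6.49 kb (0.963). The alpha excess came from the fifth site: without that site the alpha ratio was 0.899. The gamma ratio was 1.07 without the fourth site, which crosses the end of the locus.

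H3K4me3 covered 4.16% of the locus after metformin and 4.12% in control. The 740 kb just upstream had 11.1% after metformin and 10.3% in control, and the 740 kb just downstream had 5.10% and 4.20%. Among 4087 windows of the same length laid end to end over chromosomes 1 to 22 and X, 11.8% held at least as much H3K4me3 in the metformin list and 9.84% in the control list.

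Most members had a partner at the same place in the other condition. A partner means an overlap of at least 1 bp. Of the 32 metformin H3K4me3 intervals, 28 overlapped a control interval (87.5%, exact Clopper-Pearson 95% interval 71.0 to 96.5, counting error only), and of the 29 control intervals, 25 overlapped a metformin interval (86.2%, 68.3 to 96.1). The 4 metformin members without a partner compare with 32.7% of all metformin H3K4me3 intervals, and the 4 control members with 22.7% of all control intervals. The shared sequence made up 83.0% of the metformin and 82.6% of the control length of the members, against 74.3% and 83.0% over the whole lists. Neighbouring intervals of 1 site are not independent, so the intervals on these shares are too narrow.

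The deposited value of each interval is read as −log10 q, where q is the false discovery rate of the peak caller, and ranks intervals within a list. The members had a median value of 8.64 after metformin and 8.84 in control, against list medians of 6.31 and 5.73. Values of 20 or more were held by 12 of 32 metformin members and 9 of 29 control members, against 26.3% and 22.3% of the whole lists. Median width was 769 bp after metformin and 765 bp in control, against 524 bp and 517 bp. In each condition 3 members were 2 kb or wider, which is a smaller share than the 16.4% of all metformin and 14.6% of all control intervals.

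In the alpha cluster, 3 short sites lay upstream of a pair of wide ones. The first alpha site, chr5:140186418-140187418, was covered over 809 bp after metformin and 778 bp in control, with highest values of 12.7 and 12.6. The second, chr5:140201218-140201770, was covered over 353 bp after metformin and 553 bp in control (values 9.72 and 13.8). The third, chr5:140248529-140249304, was covered over 600 bp after metformin and 765 bp in control (26.4 and 30.6). These 3 sites were each a single interval in both lists. At the first site the control interval was chr5:140186641-140187418. At the third the metformin interval was chr5:140248529-140249128 and the control interval chr5:140248540-140249304.

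The fourth alpha site, chr5:140304779-140308853, held the widest alpha interval of each list, chr5:140305345-140308295 after metformin (2951 bp, value 34.2) and chr5:140305396-140308820 in control (3425 bp, value 19.1). Covered length was 3364 bp after metformin and 3607 bp in control. Each list also held short intervals beside the main one, 2 after metformin and 1 in control, at values of at most 5.73.

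The fifth alpha site, chr5:140344427-140349986, showed the largest gain of covered length in the locus, with 4252 bp after metformin and 2460 bp in control (1.73 times). After metformin its main interval was chr5:140345315-140347275 (1961 bp, value 52.9, in the 95.1st percentile of its list). In control the main interval was chr5:140345425-140346221 (797 bp, value 27.7, 85.3rd percentile). The metformin interval also reached over a second control interval of 255 bp. The next metformin interval, chr5:140347497-140348315 (819 bp, value 7.21), was the third longest of that list in the cluster. The site held 5 intervals with 11 sub-peaks after metformin and 6 intervals with 6 sub-peaks in control. At the downstream end the lists did not meet: chr5:140349653-140349986 was found after metformin only (value 3.64) and chr5:140349398-140349641 in control only (2.30), 11 bp apart.

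The beta section held 8 sites, 6 of them in both lists. The first beta site, chr5:140419251-140420740, lies near the upstream bound of the section, and whether it lies at a beta gene was not determined. It was covered over 1490 bp after metformin and 1360 bp in control, with values of 47.6 and 23.1. The second, chr5:140474217-140475980, was covered over 1764 bp after metformin and 1547 bp in control (25.7 and 19.0). The third, chr5:140514612-140516398, had the highest value of all members in either condition, 53.2 after metformin and 54.4 in control, over 1555 bp (chr5:140514612-140516166) and 1607 bp (chr5:140514792-140516398). The control interval of the second site was chr5:140474224-140475770.

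The fifth beta site was the widest of the cluster. At chr5:140529620-140534725 it was covered over 4436 bp after metformin and 4176 bp in control. Control cells had a single main interval here, chr5:140529620-140533302 (3683 bp, value 38.3, 12 sub-peaks). After metformin that stretch was split into chr5:140529646-140532297 (2652 bp, value 51.5) and chr5:140532513-140533611 (1099 bp, value 12.5). A further interval of 402 bp, chr5:140534324-140534725 (value 4.52), was found after metformin only.

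The seventh and eighth beta sites were narrower. The seventh, chr5:140579154-140580713, was covered over 1331 bp after metformin and 1536 bp in control (values 52.3 and 39.8). Its main interval was chr5:140579154-140580158 (1005 bp) after metformin and chr5:140579171-140580706 in control. The eighth, chr5:140602906-140603774, was covered over 798 bp after metformin and 856 bp in control (33.2 and 16.6). The fourth and sixth beta sites were in the control list only, at chr5:140517514-140517680 (167 bp, value 1.74) and chr5:140567439-140567671 (233 bp, value 3.46). Both values are below the list median of 5.73. Covered-length ratios of the 6 beta sites in both lists ran from 0.867 to 1.14. This was a narrower range than in alpha (0.638 to 1.73 on 5 sites). In gamma the ratios ran from 0.671 to 1.10 on 3 sites, and 0.671 belongs to the site that crosses the end of the locus. The other gamma sites in both lists had ratios of 0.956 and 1.10, inside the beta range, so beta and gamma were not ranked by range.

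Between beta and gamma, where SLC25A2 and TAF7 lie in gene order, 1 site held most of the length. The interval chr5:140697893-140701186 was 3294 bp wide after metformin (value 43.3), and chr5:140697624-140701372 was 3749 bp wide in control (value 42.4). They were the widest members of their lists, each with 11 sub-peaks. The control interval contained the metformin interval whole. Upstream in the same site lay chr5:140696844-140697058 (215 bp, value 1.96) after metformin and chr5:140696401-140697016 (616 bp, value 3.57) in control. A short interval at chr5:140695085-140695365 (281 bp, value 2.59) was in the metformin list only.

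In the gamma cluster, the highest values were 32.4 after metformin and 31.3 in control, below the 53.2 and 54.4 of the beta cluster. Gaps between gamma sites were 39.7 to 65.4 kb. The first gamma site, chr5:140723425-140727349, was covered over 2971 bp after metformin and 3109 bp in control (values 25.4 and 31.3). Its main interval was chr5:140723437-140725158 (1722 bp) after metformin and chr5:140723425-140725104 (1680 bp) in control. Its next was chr5:140726293-140727333 (1041 bp, value 10.2) after metformin and chr5:140725921-140727349 (1429 bp, value 8.84) in control. The third, chr5:140855057-140859260, was covered over 2899 bp after metformin and 2640 bp in control (32.4 and 23.7), with main intervals chr5:140855057-140856936 (1880 bp) and chr5:140855060-140856787 (1728 bp). The 128 kb between them held 1 interval, chr5:140792762-140793024, in the metformin list only (263 bp, value 2.28). In RefSeq order the 3 C types are the last gamma genes, after 19 A and B types.

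The fourth gamma site lies across the end of the locus, and whether it lies at a gamma gene was not determined. It spans chr5:140899010-140903930 and held low values, 7.55 after metformin and 5.25 in control. Of its intervals, 1 metformin and 2 control intervals are members. The control interval chr5:140899010-140899630 (621 bp, value 4.22) was the widest H3K4me3 member without a partner. The other control member, chr5:140899882-140901642 (1761 bp, value 5.25), was the longest control interval of the gamma section and reaches beyond the locus. Over the whole site, 2164 bp were covered after metformin and 3224 bp in control.

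**Figure D3:**
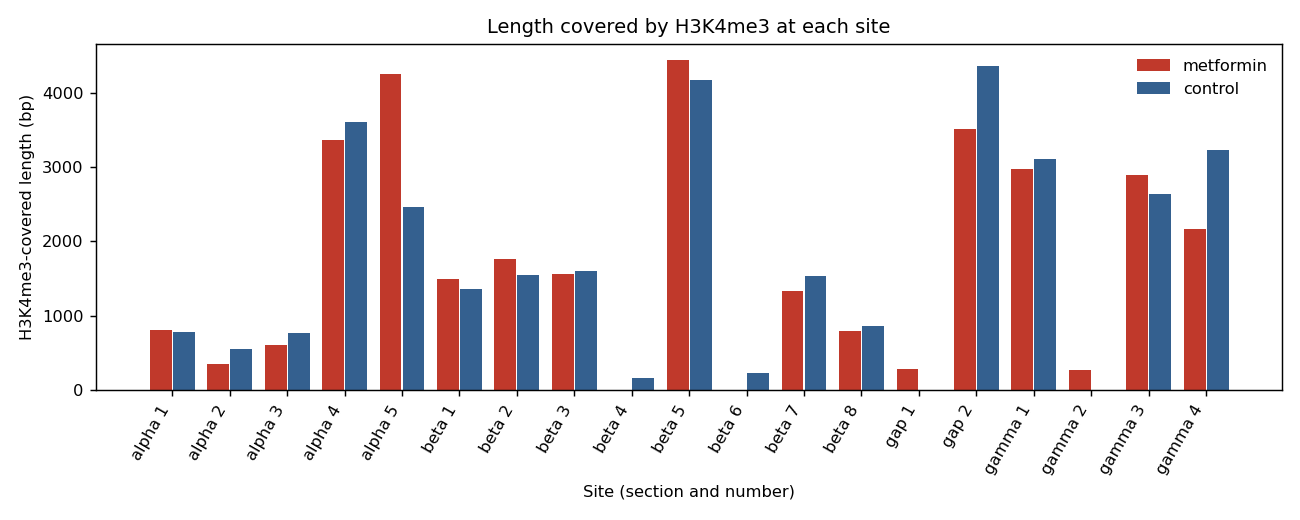
Length covered by H3K4me3 (y axis, bp) at each of the 19 sites (x axis, upstream to downstream; gap stands for the section between beta and gamma) in metformin (red) and control (blue) lists, 1 library each and so without error bars. The fifth alpha site has 4252 bp after metformin and 2460 bp in control, and the 4 sites in 1 list only are the shortest.

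Of the 15 sites in both lists, 6 were covered over a greater length after metformin and 9 over a greater length in control. The 9 include the site between beta and gamma (ratio 0.804) and the fourth gamma site, which crosses the end of the locus (0.671). The median ratio of metformin to control was 0.956. Over all 18604 sites in both lists the metformin length was greater at 66.0%, with a median ratio of 1.10. Among the 13692 of these whose mean covered length lay in the range of the 15 sites (453 to 4306 bp), the median was 1.13. Beyond a fold of 1.5, 1 site was longer after metformin (the fifth alpha site), against 18.7% of all sites, and 1 was longer in control (the second alpha site), against 5.76%. With so few sites and 1 library each, no difference between the locus and the remaining sites was tested.

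**Figure D4:**
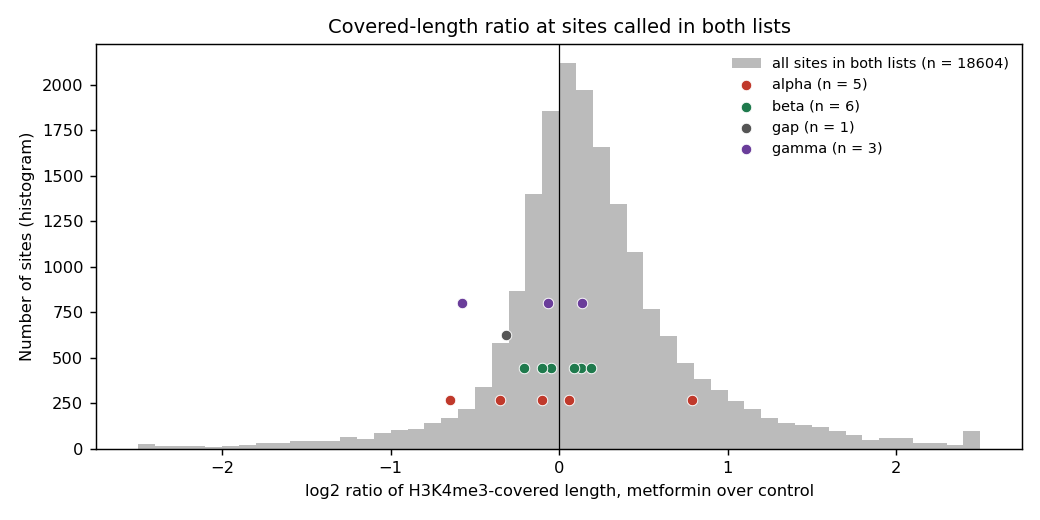
Histogram of the log2 ratio of H3K4me3-covered length, metformin over control, for 18604 sites in both lists (x axis; y axis, number of sites; the outermost bars gather all values beyond the axis). Points at arbitrary heights by section are the 15 such sites of the locus, 1 of them between beta and gamma. Of the points, 6 lie right of 0 and 9 left of it, inside the range of the histogram.

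The highest value of a site was larger in the metformin list at 11 of 15 sites, with a median ratio of 1.35. Over all 18604 sites it was larger in that list at 74.2%, with a median ratio of 1.27, and values were not compared between lists as levels of the mark. The largest ratios were at the first beta site (2.06), the eighth beta site (2.01) and the fifth alpha site (1.91). Values were larger in the control list at the second alpha site (ratio 0.702), the first gamma site (0.812), the third alpha site (0.863) and the third beta site (0.976).

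**Figure D5:**
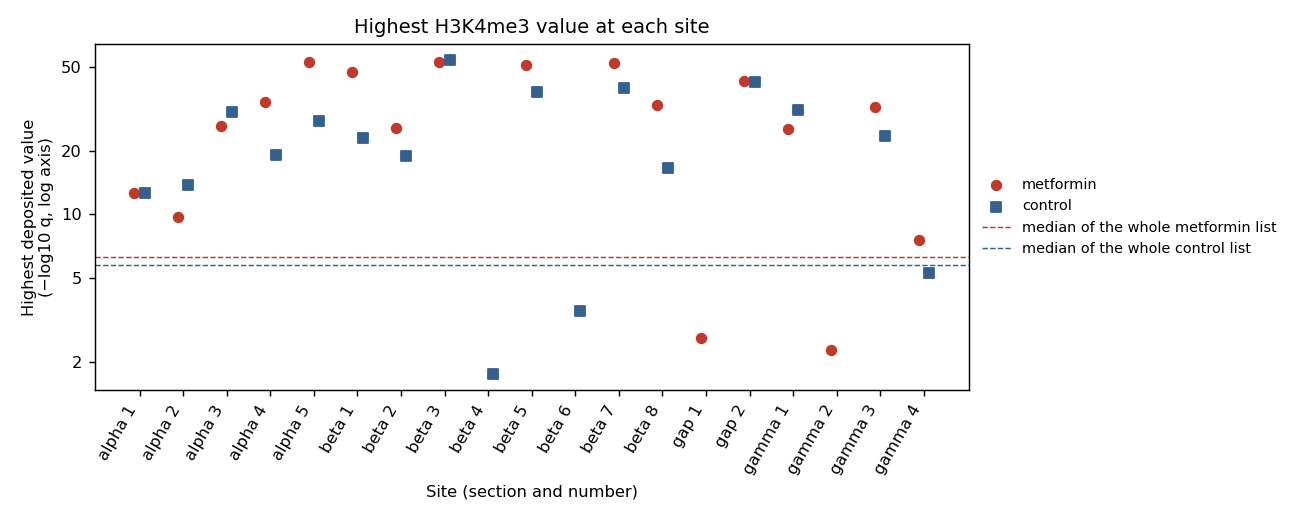
Highest deposited −log10 q (y axis, log scale) at each of the 19 sites (x axis, upstream to downstream; gap stands for the section between beta and gamma) in metformin (red circles) and control (blue squares) lists; dashed lines are the medians of all H3K4me3 intervals, 6.31 and 5.73. The 4 sites in 1 list only lie below these lines, between 1.74 and 3.46.

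The 4 sites in 1 list only were 167 to 281 bp long. Over the whole genome 29.0% of 26217 sites were in 1 list only, with a median length of 251 bp. Their values, 2.28 and 2.59 in the metformin list and 1.74 and 3.46 in the control list, lie below the list medians of 6.31 and 5.73. Depth of the libraries is unknown, and its part in these calls was not tested.

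The sole H3K27me3 member was chr5:140160961-140161156 in the metformin list, 196 bp at the upstream edge of the alpha section. Its value was 1.60, against a list median of 1.5, and it had no control partner, as did 53.7% of all metformin H3K27me3 intervals. No H3K4me3 member overlapped H3K27me3 of its own condition, 0 of 32 after metformin and 0 of 29 in control. Over the whole lists 4.55% of metformin and 2.78% of control H3K4me3 intervals did.

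The stretch without H3K27me3 calls reached beyond the locus. After metformin it was chr5:140161157-141067614 (906 kb), and in control chr5:140129041-141069185 (940 kb). Gaps at least as long, these included, numbered 492 of 85928 in the metformin list and 479 of 85555 in the control list, and 72 of them in each condition held at least as many merged H3K4me3 intervals (23 after metformin, 25 in control). Upstream, the nearest H3K27me3 interval outside the locus lay 161 kb away after metformin and 31.0 kb away in control, and the 740 kb there held 4 intervals over 2.52 kb after metformin and 4 over 2.16 kb in control. Downstream, the calls resumed within 169 kb of the locus in both lists. The next 740 kb held 70 H3K27me3 intervals over 125 kb after metformin, and 66 over 83.4 kb in control.

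Windows with no more H3K27me3 than the locus were common among all windows, and less common among those with at least as much H3K4me3. Among the 4087 windows, 35.9% held no more H3K27me3 than the locus after metformin and 35.7% in control. Windows with at least as much H3K4me3 numbered 483 in the metformin list and 402 in the control list. The median H3K27me3 cover over all of these was 17.0 kb and 11.0 kb. Of them, 41 in the metformin list and 39 in the control list held no more H3K27me3 than the locus. Nearly all H3K27me3 values (99.6% in both lists) were below 3, so H3K27me3 below the calling limit at the protocadherins cannot be told apart from its absence. Neither RNA levels, DNA methylation nor CTCF binding was measured in these files.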

How the data were processed

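The 4 ChIP libraries (H3K4me3 and H3K27me3, with and without metformin) each have 1 deposited peak list, so samples were not pooled, per the labels. Trimmomatic 0.38, Bowtie, MACS2 and hg19 (GRCh37) are named, per the submitters' processing notes, with options and background library not given in the sources used here. The deposited value was read as −log10 q because the H3K4me3 values start at 1.31, just above 1.30 (q = 0.05), and the H3K27me3 values at 1.00, as with a limit of q = 0.1. Both are peak caller scores made by the authors, not signal levels, and no read counts were given, so depth is unknown.

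Lines sharing an interval (sub-peaks) were joined, keeping the highest value. Intervals were counted in the section holding their midpoint, and lengths were clipped to sections. Overlap code was tested on the control lists, against copies with intervals dropped at random and the kept ones moved by a fixed distance. Members, sections and lists were chosen with earlier results of these data known. Intervals named are the 3 longest and 3 highest-valued per list and cluster, all with both marks, and the 3 longest per mark without a partner. Other intervals named were chosen after their values were seen. Coordinates are 1-based. Promoter counts, regulators (CTCF, cohesin and others) and cell type markers had been planned and were not analysed here, because the gene tables are on GRCh38.p14 and positions were not converted. Alternatives were another overlap, a stricter threshold, merging within 1 kb, equal list length and moved bounds. Python 3.11.15, pandas 2.3.3, numpy 2.4.6, scipy 1.17.1 and matplotlib 3.10.9 were used.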

Additional observations from a re-analysis of the deposited data

How the results depend on the processing

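No paired analysis was possible because each mark has a single library in either condition, and no replicate could be left out. Of 79 alternative values, 31 equalled the reported ones because moved bounds (24) and equal list length (7) touched no member, so they test nothing here. Of the other 48, 31 kept their direction and lay within 1.5 times the reported number, ratio or length, or within the share's interval, 13 moved and 4 turned round. These 31 include values that could not have changed. A stricter threshold only drops intervals, so 0 control H3K27me3 intervals and 0 bp with both marks stayed so. Merging within 1 kb could not reach H3K27me3 calls outside the locus, which lay 31.0 kb or more away, nor bring the sole H3K27me3 member to H3K4me3. With values of at least 5 for H3K4me3, metformin intervals numbered 1 between beta and gamma (3 reported) and 5 in gamma (8), and control intervals 6 in alpha (11), 1 between beta and gamma (2) and 4 in gamma (7), and the gamma ratio of covered length turned from 0.963 to 1.11. With intervals within 1 kb merged, metformin intervals numbered 5 in alpha (11), 6 in beta (10) and 4 in gamma (8), and control intervals 6 in alpha (11), 1 between beta and gamma (2) and 3 in gamma (7), and the beta ratio turned from 0.991 to 1.04. The numbers fall by construction, since fewer intervals are left, and the cause of the turned ratios was not tested. No ratio could be given for H3K27me3, as the control list had no member. Joining sites at other distances and leaving out a site were chosen after seeing the data. Joining within 2 kb left 1 site in the metformin list only and 1 in the control list only (2 each reported), leaving out the fifth alpha site turned the alpha ratio from 1.15 to 0.899, and leaving out the fourth gamma site turned the gamma ratio from 0.963 to 1.07. The section ratios near 1 therefore have no settled direction. Shares of members with a partner ran from 75.0% to 88.2% after metformin and from 75.9% to 88.9% in control. The length with both marks stayed at 0 bp, which neither a stricter threshold nor merging within 1 kb could have changed. Read depth was unknown, so what it limits could not be measured.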
